A study of Mus musculus with 8 samples.

Results

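Glycolysis and hypoxia-inducible genes, 38 in all, were followed in the tail epidermis of mice in which Ppp1r8 had been targeted in keratinocytes. Its product NIPP1 binds protein phosphatase PP1 in the nucleus and regulates it. The 38 genes were chosen by name, out of 46983 gene identifiers in the count table, and comprise the glucose transporters, the enzymes from hexokinase to lactate dehydrogenase, the lactate transporters, the hypoxia-inducible factor (HIF) pathway and textbook HIF target genes. All 38 passed the filter on low counts, among 15638 genes tested. The 4 KO mice were K14-Cre/+ Ppp1r8 fl/-, with 1 floxed and 1 null allele, and the 4 CTR mice were K14-Cre/+ Ppp1r8 fl/+, with 1 floxed and 1 wild-type allele. Both groups therefore carried Cre, driven by the keratin 14 promoter of basal keratinocytes, and 1 floxed allele. The strain entry, the same for both groups, names the transgene Tg(KRT14-cre)1Amc/J, the allele Ppp1r8tm1Ave and the allele Ppp1r8tm1.1Itl. The mice were 8 weeks old and each gave 1 library, made from poly-A RNA of the epidermal sheet. Cells other than keratinocytes in that sheet keep their floxed allele unless they, too, have expressed the transgene. The other allele, null in KO and wild-type in CTR, does not depend on Cre, so such cells also differ in genotype between the groups. CTR keratinocytes that lose the floxed allele keep the wild-type one alone. The labels give neither sex nor litter.

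Glycolysis splits glucose into pyruvate in the cytosol, and lactate dehydrogenase turns pyruvate into lactate, which leaves the cell through monocarboxylate transporters together with a proton. HIF is a pair of an alpha subunit and Arnt. In the presence of oxygen, prolyl hydroxylases mark the alpha subunit, Vhl recognises the mark and the protein is degraded. When oxygen is scarce the alpha subunit persists, joins Arnt and switches on glycolytic enzymes, lactate export and genes such as Vegfa and Car9. Since this control acts on the protein, RNA levels of Hif1a do not measure HIF activity. The epidermis has no blood vessels of its own and keratinocytes are known for a high rate of glycolysis even where oxygen is present.

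Library totals were 18649079 to 20500885 counts in KO and 16696212 to 21571935 counts in CTR, and did not differ beyond their spread (exact permutation p = 0.8, n = 4 per group). The targeted gene Ppp1r8 had 28.3 to 47.4 CPM (counts scaled to a common library size) in KO and 34.7 to 41.5 CPM in CTR, a log2 fold change of -0.06 (edgeR adjusted p = 0.789). Which exons are lost is not given in the sources used here, so these counts over the whole gene do not check the genotype. Keratinocyte markers summed to 55503 to 72325 CPM in KO and 30530 to 35389 CPM in CTR, as fits the labelled tissue. In bulk tissue, fewer cells of a type and less RNA per cell cannot be told apart, which holds for every gene described here.

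Between the groups, 12 of the 38 members differed at an adjusted p under 0.05 in edgeR's quasi-likelihood test. Of these, 11 rose in KO epidermis and 1, Arnt, fell. Among all 15638 genes tested, 23.7% differed, made up of 11.5% that were higher and 12.2% that were lower in KO, so that the 28.9% of members that rose and the 2.63% that fell stand beside a broad difference between the groups. The median log2 fold change was 0.25 over the members and -0.0026 over all genes. In 13 members every KO library lay above every CTR library, against 12.8% of all genes, and in 1 member every KO library lay below, against 13.3% of all genes. With neighbouring mouse numbers taken as pairs, an analysis added after the data were seen, the 12 were called again and Ldha, Pgam1, Pfkfb4, Egln3 and P4ha2 rose as well, which made 16 rises beside 12.9% of all genes. Of the 33 members with a mean of at least 10 CPM, 10 rose, beside 12.1% of the genes at that level. Together the 38 genes took 0.409%, 0.376%, 0.414% and 0.407% of the scaled library size in KO libraries 1 to 4. In CTR libraries 1 to 4 they took 0.349%, 0.317%, 0.340% and 0.356%. The KO range thus lay above the CTR range, without overlap. Abundant members weigh most in this sum. Among them were Pkm (mean 513 CPM in KO, 356 in CTR), Ldha (517 and 382) and Aldoa (437 and 400), of which only Pkm was called. By gene, 30 of the 38 log2 fold changes were above 0 and 8 below.

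**Figure D1:**
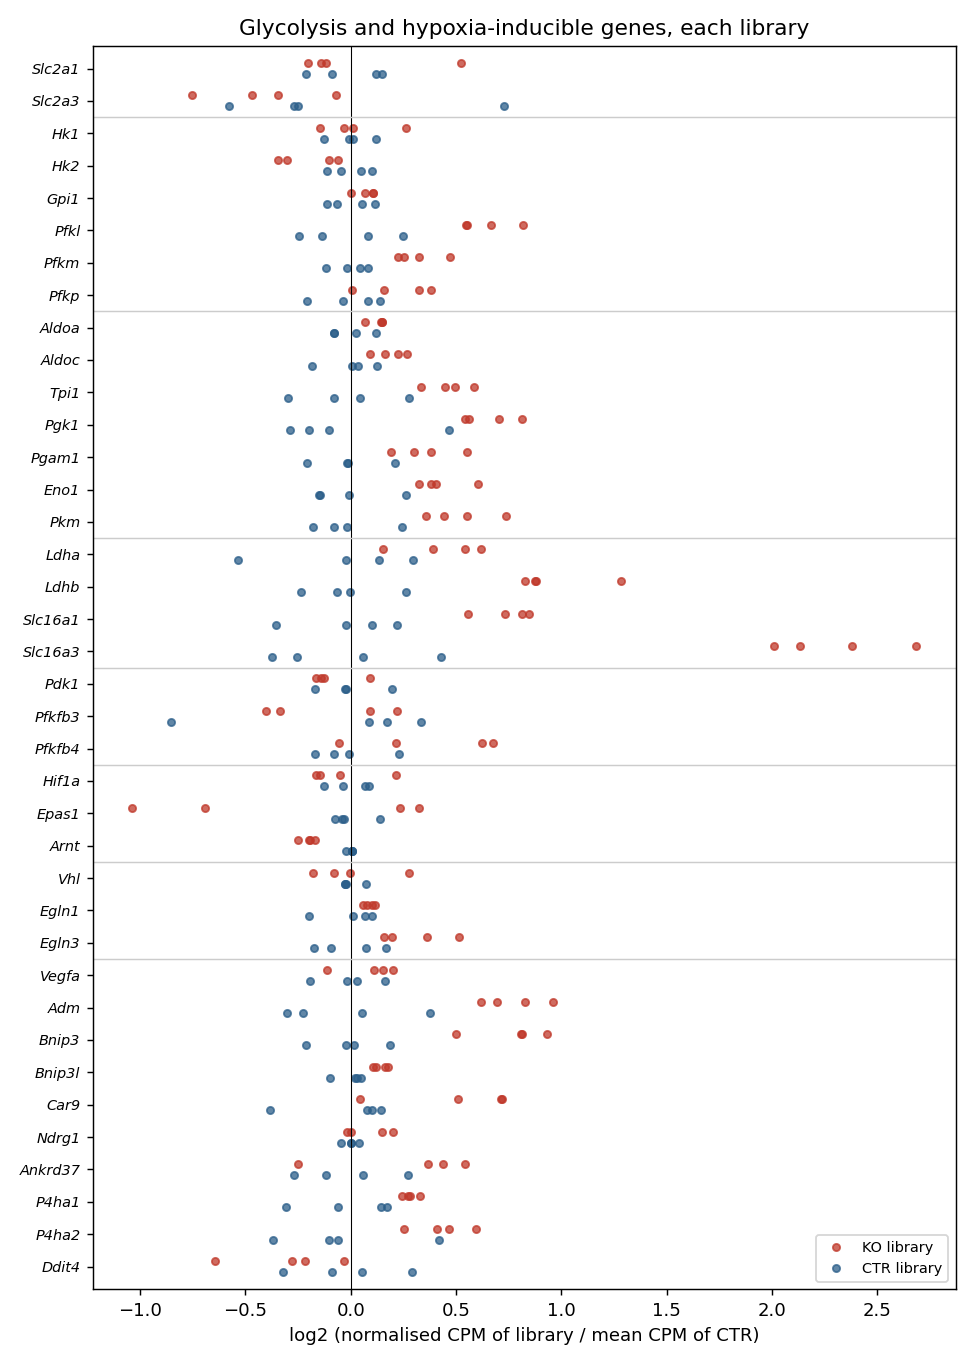
Normalised CPM of each library over the mean of the CTR libraries, on a log2 scale, for each of the 38 genes (red, 4 KO libraries; blue, 4 CTR libraries; grey lines separate the roles). Slc16a3 stands apart from all other members, and the other rises are those of Pfkl, Pfkm, Tpi1, Pgk1, Eno1, Pkm, Ldhb, Slc16a1, Adm and Bnip3.

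The largest change by far was that of Slc16a3, which encodes the lactate exporter MCT4. Its levels were 15.8, 14.5, 18.8 and 23.2 CPM in KO libraries 1 to 4, against 4.86, 2.79, 3.03 and 3.76 CPM in CTR libraries 1 to 4. The lowest KO library was well above the highest CTR library. The log2 fold change was 2.32 ± 0.21 (SE), a ratio of 5.00 (edgeR adjusted p = 0.000224), and it stayed between 2.18 and 2.50 in all 17 alternative analyses. Slc16a3 lies on chromosome 11, 120948480 to 120960868 (GRCm38).

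Promoters of members that rose in KO are shown with one of a classical HIF target, Car9, that did not pass the test, since HIF binds the letters ACGTG or GCGTG. Each line gives 250 bases before the RefSeq transcription start to 50 after it, 5′ to 3′ on the gene's strand (GRCm38.p6), with capitals for ACGTG or GCGTG on either strand (CACGT and CACGC are these motifs read on the other strand, and CACGTG holds overlapping matches on both).
Slc16a3: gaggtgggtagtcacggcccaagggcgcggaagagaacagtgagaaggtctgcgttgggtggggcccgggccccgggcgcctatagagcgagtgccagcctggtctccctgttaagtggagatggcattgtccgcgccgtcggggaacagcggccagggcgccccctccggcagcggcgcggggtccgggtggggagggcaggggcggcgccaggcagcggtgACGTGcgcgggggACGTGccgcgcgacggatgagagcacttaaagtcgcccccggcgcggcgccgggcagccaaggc
Slc16a1: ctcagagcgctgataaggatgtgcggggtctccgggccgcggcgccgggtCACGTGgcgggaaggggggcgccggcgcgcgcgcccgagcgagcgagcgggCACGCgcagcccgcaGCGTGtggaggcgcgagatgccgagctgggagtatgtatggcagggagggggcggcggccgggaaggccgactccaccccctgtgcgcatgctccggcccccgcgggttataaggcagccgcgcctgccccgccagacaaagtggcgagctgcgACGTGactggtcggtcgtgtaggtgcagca
Bnip3: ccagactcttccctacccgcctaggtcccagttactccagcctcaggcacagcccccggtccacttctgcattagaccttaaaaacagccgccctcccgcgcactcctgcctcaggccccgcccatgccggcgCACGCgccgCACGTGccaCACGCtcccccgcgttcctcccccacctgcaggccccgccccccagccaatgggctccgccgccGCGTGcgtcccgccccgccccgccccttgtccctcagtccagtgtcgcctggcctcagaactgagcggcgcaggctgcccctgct
Adm: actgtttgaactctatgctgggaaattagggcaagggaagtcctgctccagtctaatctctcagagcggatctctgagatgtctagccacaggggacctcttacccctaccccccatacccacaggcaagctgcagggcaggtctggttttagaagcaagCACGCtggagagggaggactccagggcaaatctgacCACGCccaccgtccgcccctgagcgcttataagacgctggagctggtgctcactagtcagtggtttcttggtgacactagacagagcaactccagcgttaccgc
Car9: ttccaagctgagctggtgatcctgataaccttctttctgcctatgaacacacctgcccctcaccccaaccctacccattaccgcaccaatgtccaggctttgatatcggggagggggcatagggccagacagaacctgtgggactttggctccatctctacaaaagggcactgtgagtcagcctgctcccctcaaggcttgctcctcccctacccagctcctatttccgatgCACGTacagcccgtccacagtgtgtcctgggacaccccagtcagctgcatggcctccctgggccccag
The Slc16a3 window is chr11:120948817-120949116 on the plus strand, the Slc16a1 window chr3:104638414-104638713 on the plus strand and the Bnip3 window chr7:138909457-138909756 on the minus strand. The Adm window is chr7:110627407-110627706 and the Car9 window chr4:43506776-43507075, both on the plus strand. They held 2 matches (Slc16a3), 5 (Slc16a1), 5 (Bnip3), 2 (Adm) and 1 (Car9). In Slc16a3 the matches began 27 and 14 bases before the start site. RefSeq gave a promoter for 34 of the 38 members, and 31 of these genes had at least 1 match in at least 1 promoter. The share was 10 of 11 among the members that rose and 21 of 23 among the other members. Among all 27025 genes of the RefSeq promoter set, 46.7% had a match, and promoters of equal base composition were not set apart. Since a gene can have more than 1 promoter, the share was also taken by promoter. It was 39 of 48 for members, against 43.8% of all 32851 promoters. A match is a description of the letters and not a binding site.

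Of the other lactate genes, Slc16a1 and Ldhb rose as well. Slc16a1, which encodes the monocarboxylate transporter MCT1, had 88.7, 95.9, 78.4 and 93.6 CPM in KO libraries 1 to 4, against 52.4, 41.7, 62.0 and 57.2 CPM in CTR libraries 1 to 4. The groups did not overlap, and the log2 fold change was 0.74 ± 0.12 (SE, edgeR adjusted p = 0.00271). Ldhb, the heart-type subunit of lactate dehydrogenase, had 23.5, 31.3, 22.8 and 23.6 CPM in KO libraries, against 10.9, 12.8, 15.4 and 12.3 CPM in CTR libraries. KO library 2 was the highest of all, and the log2 fold change was 0.98 ± 0.14 (edgeR adjusted p = 0.00137). Ldha, the muscle-type subunit and a classical HIF target, had 586, 425, 501 and 556 CPM in KO libraries, against 419.7, 263, 376 and 469 CPM in CTR libraries. KO library 2 lay within the CTR range and CTR library 2 was far below the rest, so the groups overlapped. Its log2 fold change of 0.44 ± 0.17 missed the threshold (edgeR adjusted p = 0.083), and passed it without CTR library 4 (adjusted p = 0.0484), in DESeq2 (0.0348) and with neighbouring mice as pairs (0.00834). Thus 3 of 4 lactate genes rose, with a median log2 fold change of 0.86 over the 4.

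The enzymes from aldolase to pyruvate kinase were all higher on average in KO, with log2 fold changes of 0.13 to 0.66 and a median of 0.43, and 4 of the 7 passed the test. Pkm, pyruvate kinase, which makes ATP and pyruvate in the last step, had 521, 484, 455 and 594 CPM in KO libraries 1 to 4, against 352, 314, 337 and 421 CPM in CTR libraries 1 to 4. The log2 fold change was 0.53 ± 0.11 (SE, edgeR adjusted p = 0.00917), without overlap. Tpi1, which interconverts the triose phosphates, had 193, 173, 187 and 205 CPM in KO libraries, against 129.9, 111, 141 and 166 CPM in CTR libraries. Its log2 fold change was 0.47 ± 0.12 (edgeR adjusted p = 0.0167), and CTR library 4 came close to the lowest KO library.

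Pgk1, the first ATP-making enzyme of the pathway, was low at 13.9, 12.4, 12.6 and 14.97 CPM in KO libraries 1 to 4, against 7.93, 6.97, 7.42 and 11.8 CPM in CTR libraries 1 to 4. The log2 fold change was 0.66 ± 0.17 (SE, edgeR adjusted p = 0.019), with no overlap. The call was lost without KO library 4 (0.0517), CTR library 1 (0.0526), CTR library 2 (0.0528) or CTR library 3 (0.0549), where the log2 fold change was 0.57 to 0.62. Eno1, enolase, had 37.8, 31.1, 32.4 and 32.8 CPM in KO libraries, against 24.7, 22.4, 22.4 and 29.8 CPM in CTR libraries. Its log2 fold change of 0.43 ± 0.11 (edgeR adjusted p = 0.0186) was no longer called without CTR library 2 (0.0539) or CTR library 3 (0.0549). Pgam1, phosphoglycerate mutase, had 12.7 to 16.3 CPM in KO and 9.66 to 12.9 CPM in CTR, a log2 fold change of 0.36 (edgeR adjusted p = 0.0531, and 0.0248 with neighbouring mice as pairs). The aldolases Aldoa and Aldoc had log2 fold changes of 0.13 (adjusted p = 0.229) and 0.19 (adjusted p = 0.133). Within these 7 genes the libraries of a group kept similar ranks, since CTR library 4 was the highest of its group for 5 genes and CTR library 2 the lowest for 5, while KO library 4 was the highest of its group for 4 and KO library 2 the lowest for 6.

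**Figure D2:**
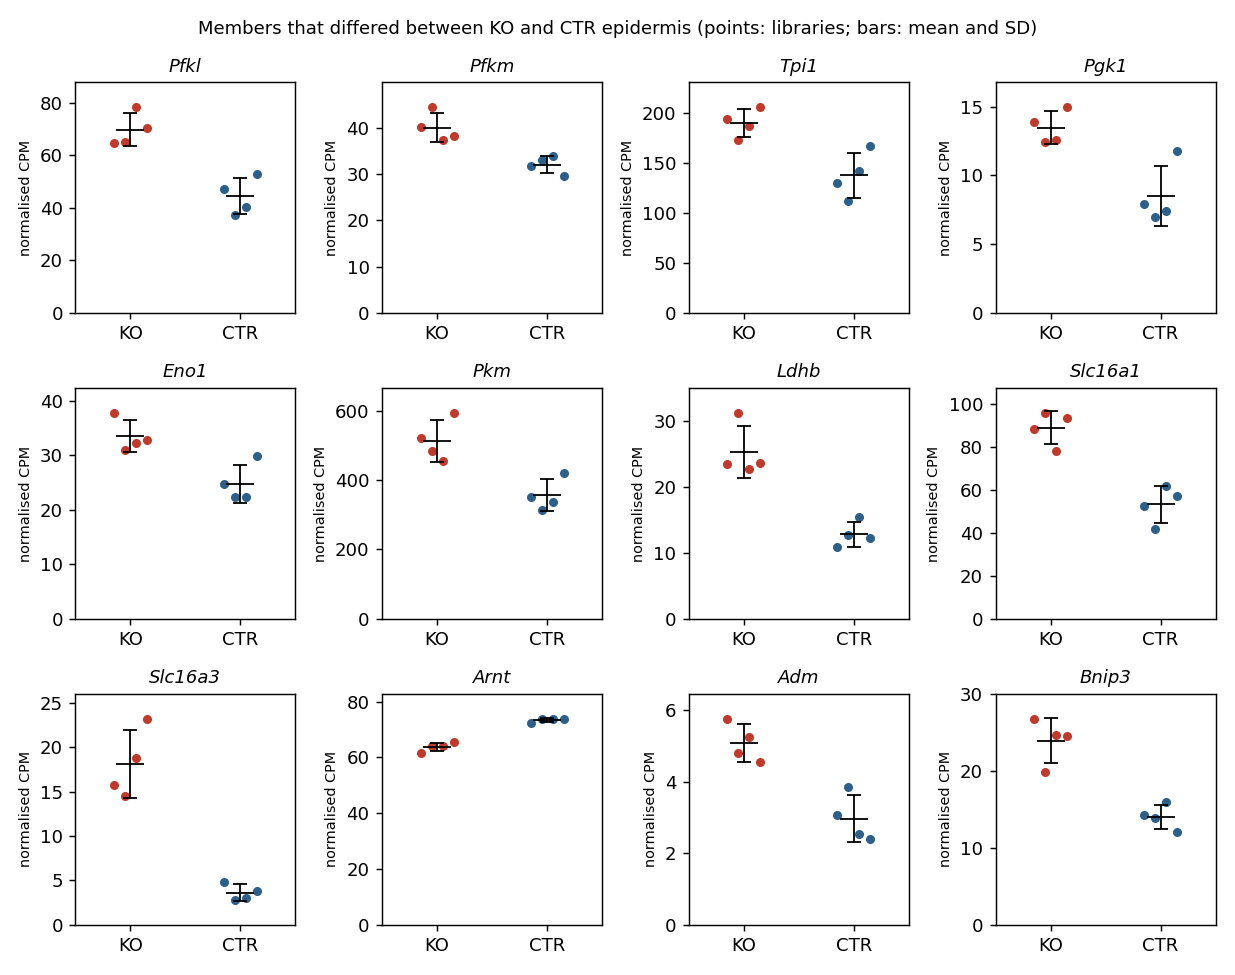
Normalised CPM in each library (points) with the group mean and SD (bars) for the 12 members that differed, KO left of CTR, each axis starting at 0. In each of the 12 genes the 4 KO libraries do not overlap the 4 CTR libraries, and Arnt is the gene in which KO is the lower group.

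Among the earlier steps, the muscle and liver forms of phosphofructokinase, the committed step of glycolysis, were the members that rose. Pfkl, the liver form, had 64.9, 65.2, 78.4 and 70.4 CPM in KO libraries 1 to 4, against 47.1, 37.4, 40.4 and 52.8 CPM in CTR libraries 1 to 4. The groups were well apart, with a log2 fold change of 0.65 ± 0.11 (SE, edgeR adjusted p = 0.0039). Pfkm, the muscle form, had 40.2, 44.6, 37.5 and 38.2 CPM in KO libraries, against 31.7, 33.1, 33.9 and 29.6 CPM in CTR libraries. Its change was smaller, at 0.32 ± 0.08 (edgeR adjusted p = 0.0191), and was not called without KO library 2 (0.0517). The platelet form Pfkp had 117 to 152 CPM in KO and 101 to 128 CPM in CTR, and its log2 fold change of 0.22 was not called (edgeR adjusted p = 0.139). Per kilobase of exon, Pfkm stood at 12.0, Pfkl at 10.4 and Pfkp at 10.2 CPM per kilobase in KO. In CTR, Pfkm stood at 9.61, Pfkl at 6.66 and Pfkp at 8.69. The divisor covers all annotated exons of a gene, 13401 bases for Pfkp, 6675 for Pfkl and 3340 for Pfkm. The longest coding transcripts had 4145, 3730 and 2879 bases in the same order. The isoforms can therefore not be ranked by these values.

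Glucose uptake and phosphorylation, which open the pathway, had no member that passed the test. Slc2a1, the main glucose transporter of keratinocytes (GLUT1), had 147, 145, 229 and 139 CPM in KO libraries 1 to 4, against 177, 173, 138 and 149.6 CPM in CTR libraries 1 to 4. KO library 3 stood far above the other KO libraries, and the log2 fold change of 0.05 ± 0.16 (SE, edgeR adjusted p = 0.848) became -0.15 without it (adjusted p = 0.269). Slc2a3, another transporter, stayed at 0.995 to 1.60 CPM in KO and 1.13 to 2.78 CPM in CTR, with a log2 fold change of -0.37 (adjusted p = 0.407). Hk2, the hexokinase induced by HIF, had 50.6, 60.01, 61.6 and 52.1 CPM in KO libraries, against 69.1, 66.5, 62.4 and 59.5 CPM in CTR libraries. These groups overlapped, with a log2 fold change of -0.20 ± 0.09 (edgeR adjusted p = 0.123). Hk1, the ubiquitous hexokinase, and Gpi1, which converts glucose 6-phosphate, had log2 fold changes of 0.03 and 0.07 (adjusted p = 0.839 and 0.485).

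Switches of glycolytic flux did not pass the test. Pdk1, a kinase that shuts off pyruvate dehydrogenase, and Pfkfb3, which makes the activator of phosphofructokinase, both had log2 fold changes of -0.08 (edgeR adjusted p = 0.542 for Pdk1 and 0.840 for Pfkfb3). Pfkfb4, its relative, had 20.3 to 33.6 CPM in KO and 18.7 to 24.7 CPM in CTR, with a log2 fold change of 0.39 (adjusted p = 0.102), and was called without KO library 1 (adjusted p = 0.0254) and with neighbouring mice as pairs (0.0345).

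**Figure D3:**
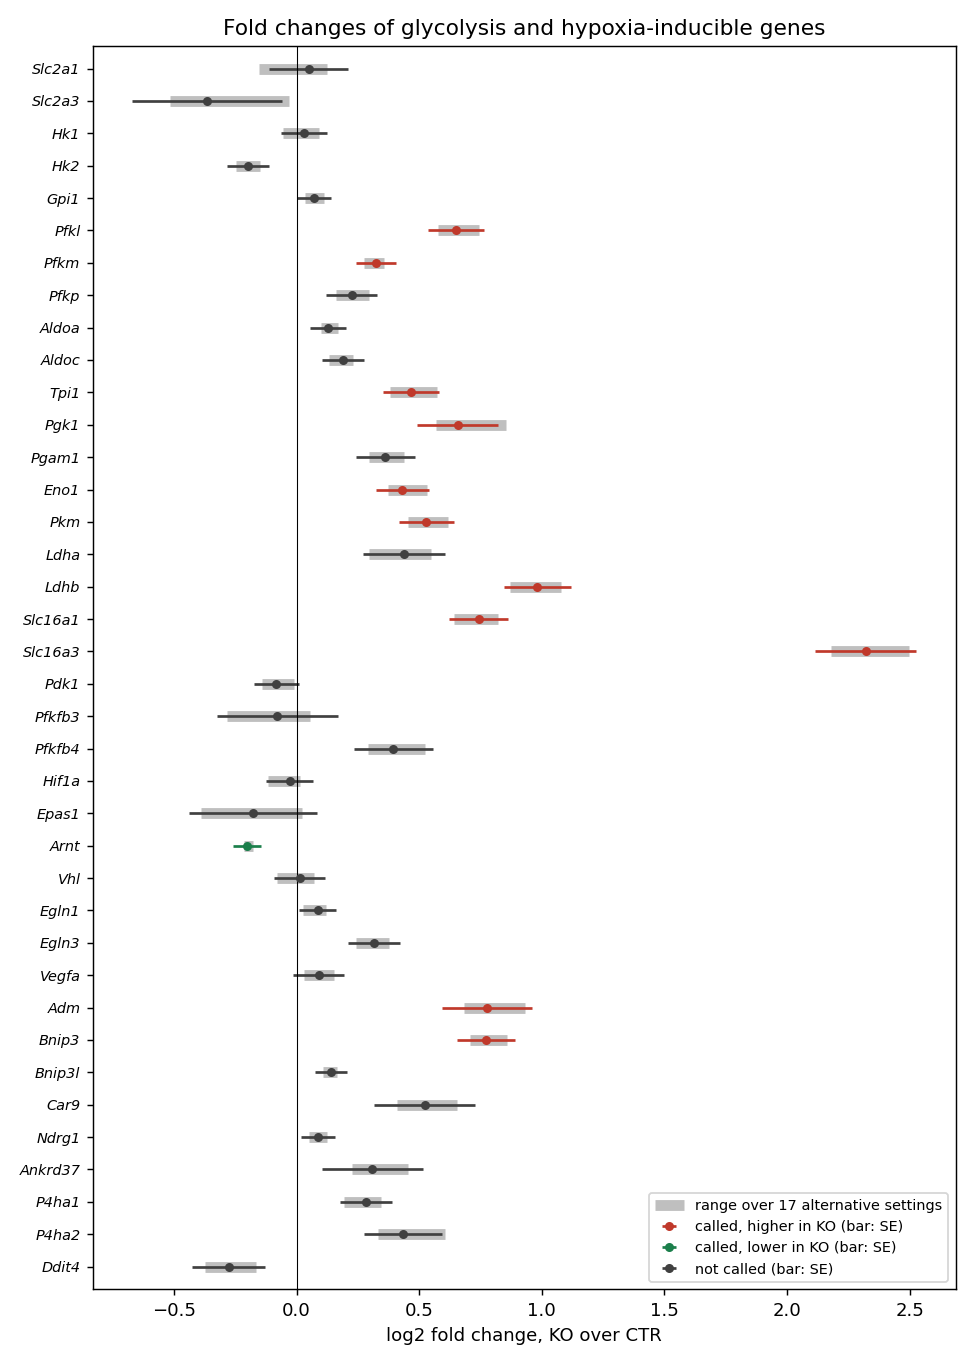
Log2 fold change, KO over CTR, with its SE for each of the 38 genes (red, called and higher in KO; green, called and lower; dark grey, not called), over grey bars for the range across 17 alternative analyses. The bars of the 11 genes that rose stay right of 0, while those of Slc2a1, Hk1, Pfkfb3, Hif1a, Epas1 and Vhl cross it.

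Of the HIF subunits, none rose in KO. Hif1a, the widely expressed alpha subunit, had 213, 227, 273 and 210.3 CPM in KO libraries 1 to 4, against 216, 247, 250.3 and 229.7 CPM in CTR libraries 1 to 4. The groups overlapped almost wholly, with a log2 fold change of -0.03 ± 0.10 (SE, edgeR adjusted p = 0.853). Epas1, which encodes HIF-2 alpha, had 42.1, 20.9, 39.5 and 16.4 CPM in KO libraries, against 31.9, 37.1, 32.9 and 32.7 CPM in CTR libraries. The KO libraries fell on both sides of the CTR range, with a coefficient of variation of 43.7% in KO and 6.87% in CTR, and the log2 fold change was -0.18 (edgeR adjusted p = 0.648). Arnt, the partner of both, had 61.7, 64.2, 63.9 and 65.4 CPM in KO libraries, against 72.4, 73.8, 73.7 and 73.8 CPM in CTR libraries. This small difference was set against very tight groups: the log2 fold change was -0.20 ± 0.06 (edgeR adjusted p = 0.0283). It was called in 8 of the 17 alternatives, and with any single library other than KO library 3 left out the adjusted p was 0.0508 to 0.0789.

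Of the 3 members that mark HIF alpha for degradation, none was called. Vhl, the recognition subunit of the ubiquitin ligase, had 25.1, 19.6, 18.3 and 20.7 CPM in KO libraries 1 to 4, against 20.4, 20.4, 20.5 and 21.8 CPM in CTR libraries 1 to 4. The log2 fold change was 0.01 ± 0.10 (SE, edgeR adjusted p = 0.943), and the KO libraries spread to both sides of CTR. Egln1, the main prolyl hydroxylase, had a log2 fold change of 0.09 (adjusted p = 0.429). Egln3, a prolyl hydroxylase that is itself a HIF target, had 264 to 338 CPM in KO and 209.6 to 266 CPM in CTR. Its log2 fold change of 0.32 ± 0.10 just missed the threshold (edgeR adjusted p = 0.0526), and was called in 8 of 17 alternatives and with neighbouring mice as pairs (0.0134). Partners of Vhl in the ligase stand on the further hypoxia list and are named after their values were seen. Rbx1, its RING subunit, rose with a log2 fold change of 0.39 (edgeR adjusted p = 0.00814), as did the elongins Eloc (0.34, adjusted p = 0.0237) and Elob (0.31, adjusted p = 0.0350), while the scaffold Cul2 was not called (0.05, adjusted p = 0.631). Eloc was not called without KO library 4, CTR library 1, CTR library 2 or CTR library 4 (adjusted p = 0.0538 to 0.0629), nor Elob without KO library 1, KO library 2, KO library 4, CTR library 1 or CTR library 2 (0.0591 to 0.0886).

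Among the 10 further hypoxia targets, Adm and Bnip3 rose and the other 8 were not called, with a median log2 fold change of 0.30. Bnip3, a mitochondrial receptor for mitophagy, had 26.8, 19.9, 24.7 and 24.6 CPM in KO libraries 1 to 4, against 14.2, 13.8, 16.01 and 12.1 CPM in CTR libraries 1 to 4. The log2 fold change was 0.77 ± 0.12 (SE, edgeR adjusted p = 0.00217), with no overlap. Adm, which encodes the vasodilator peptide adrenomedullin, had 5.76, 4.80, 5.25 and 4.55 CPM in KO libraries, against 3.07, 3.85, 2.53 and 2.398 CPM in CTR libraries. All KO libraries were higher, with a log2 fold change of 0.78 ± 0.18 (edgeR adjusted p = 0.0135).

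Vegfa, the main angiogenic factor of skin, had 22.1, 21.5, 20.8 and 17.8 CPM in KO libraries 1 to 4, against 19.7, 21.6, 16.9 and 19.04 CPM in CTR libraries 1 to 4. The groups overlapped, with a log2 fold change of 0.09 ± 0.10 (SE, edgeR adjusted p = 0.554). Car9, a carbonic anhydrase of the cell surface, had 2.199, 3.03, 3.50 and 3.49 CPM in KO libraries, against 2.25, 1.63, 2.29 and 2.35 CPM in CTR libraries. KO library 1 lay within the CTR range, and the log2 fold change of 0.52 ± 0.21 (edgeR adjusted p = 0.0939) was called when it was left out (0.0446). The collagen prolyl hydroxylase subunits P4ha1 and P4ha2 had log2 fold changes of 0.28 and 0.43 (adjusted p = 0.0782 and 0.0753), and P4ha2 was called with neighbouring mice as pairs (0.0303). Bnip3l, the relative of Bnip3, and Ndrg1, a stress-responsive gene, had 0.14 and 0.09 (adjusted p = 0.136 and 0.387). Ankrd37, an ankyrin-repeat gene, had 0.31 (adjusted p = 0.302) and Ddit4, an inhibitor of mTORC1 signalling, -0.28 (adjusted p = 0.202).

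Per kilobase of annotated exon, the highest members were Ldha, at 156 CPM per kilobase in KO and 115 in CTR, and Aldoa, at 150.1 in KO and 138 in CTR. Ldha had the higher mean in KO and Aldoa in CTR, and in both groups the gap was within the spread of Ldha. Egln3 (111 in KO, 88.9 in CTR) and Pkm (103 in KO, 71.2 in CTR) came next on this measure. It divides by all annotated exons of a gene, 5001 bases for Pkm, whose longest coding transcript had 2432. For Egln3 either length was 2662 bases, so the order of Egln3 and Pkm depends on the length used. Slc16a1 stood at 20.1 CPM per kilobase in KO and 12.0 in CTR, far above Slc16a3 at 3.40 in KO and 0.679 in CTR. The exporter with the strongest rise was therefore still the less abundant transcript of this pair in both groups. Slc2a3 was the lowest member, at 0.177 CPM per kilobase in KO and 0.232 in CTR.

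Several of these enzymes have near-identical copies in the genome, and how reads that match more than 1 place were counted is not given in the sources used here. Gapdh, the housekeeping enzyme between Tpi1 and Pgk1, had no more than 2.51, 4.70, 3.45 and 3.65 CPM in KO libraries 1 to 4, against 3.02, 2.50, 2.90 and 2.12 CPM in CTR libraries 1 to 4. Of the 75-base windows of its transcript, the read length used, 82.6% also occurred with at most 1 mismatch in transcripts of at least 20 other annotated genes. That share was 81.8% for Eno1, 76.9% for Bnip3, 67.5% for Pgk1, 45.3% for Pkm, 42.7% for Ldhb, 40.6% for Pgam1, 27.6% for Ldha and 13.2% for Tpi1. Counts of these genes may therefore be split or lost, and their levels are uncertain. The copy Eno1b itself had 33.8 to 42.99 CPM in KO and 27.5 to 36.4 CPM in CTR, and the copy Tpi-rs11 28.3 to 31.9 CPM in KO and 19.8 to 30.5 CPM in CTR. Slc16a3, Slc16a1, Pfkl, Pfkm and Adm, and Arnt, had no shared window. Of the 19 members without any, 5 rose and 1 fell, with a median log2 fold change of 0.19, and of the 13 with more than 10% shared, 6 rose, with a median of 0.43.

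**Figure D4:**
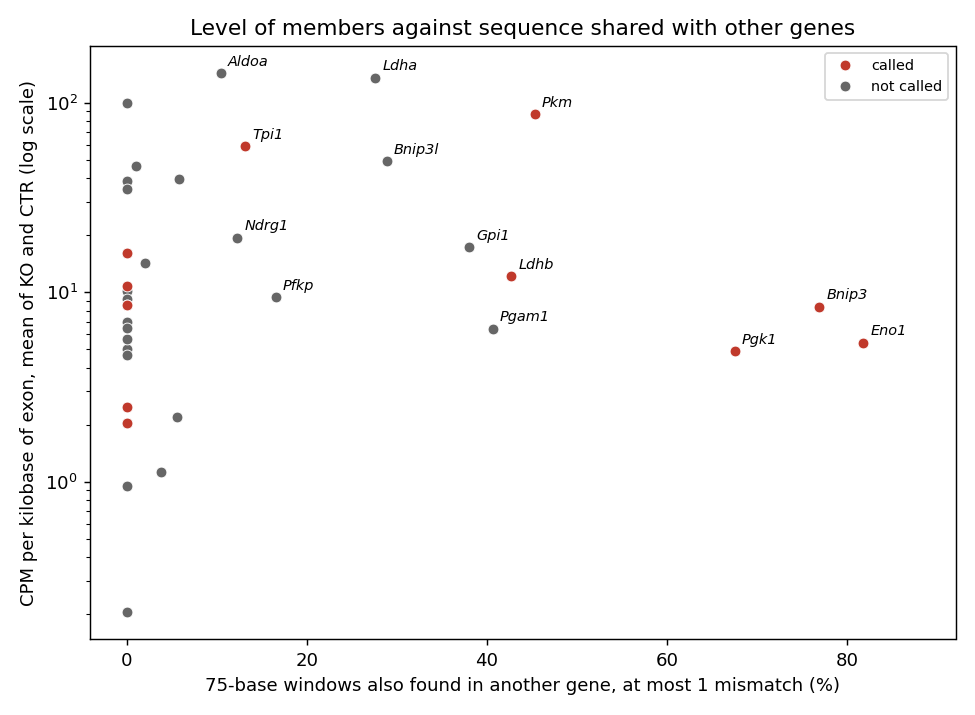
Mean CPM per kilobase of exon over the KO and CTR groups (log scale) against the share of 75-base windows of a member's transcript also found in another annotated gene with at most 1 mismatch (red, called; grey, not called). Called members lie both at 0%, as Slc16a3 and Slc16a1 do, and at high shares, as Pgk1 (67.5%), Bnip3 (76.9%) and Eno1 (81.8%) do.

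Beyond the 38, other genes of the same pathways moved in both directions. Of 50 further genes of glucose metabolism, 40 were tested, and 5 rose and 5 fell. Of 60 further hypoxia and HIF pathway genes, 52 were tested, and 9 rose and 4 fell. Over both lists 25% of the tested genes differed, near the 23.7% of all genes, with a median log2 fold change of 0.07.

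In the glucose list, Fbp1, the gluconeogenic fructose bisphosphatase, had 1.1, 16.4, 15.3 and 4.65 CPM in KO libraries 1 to 4, against 24.3, 45.3, 45.98 and 42.1 CPM in CTR libraries 1 to 4. It fell by 2.07 ± 0.57 (SE) on the log2 scale (edgeR adjusted p = 0.0257), and was not called without KO library 4 (0.0639), CTR library 2 (0.0569), CTR library 3 (0.0605) or CTR library 4 (0.0520), or in the robust fit (0.0863). The muscle form Fbp2 rose (log2 fold change 0.57, adjusted p = 0.00349), with 12.0 to 14.1 CPM in KO and 8.56 to 9.08 CPM in CTR. The insulin-responsive glucose transporter Slc2a4 rose by 0.77 on the log2 scale (adjusted p = 0.00835) and Pdhb, a subunit of pyruvate dehydrogenase, by 0.43 (adjusted p = 0.00995). Pgm2, a phosphopentomutase, fell by 0.65 (adjusted p = 0.00253) and Minpp1, a phosphatase of inositol phosphates, fell by 0.60 (adjusted p = 0.00692). Pdk4, the starvation-induced relative of Pdk1, was not called (log2 fold change 0.33, adjusted p = 0.361), nor was Gapdh (0.45, adjusted p = 0.159).

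In the hypoxia list, Fam162a, a mitochondrial protein induced by HIF, had 137, 121, 137 and 125 CPM in KO libraries 1 to 4, against 64.9, 52.2, 79.9 and 73.3 CPM in CTR libraries 1 to 4. The groups were far apart, with a log2 fold change of 0.95 ± 0.12 (SE, edgeR adjusted p = 0.000996). Plod1, a collagen lysyl hydroxylase, had 17.9, 31.97, 31.2 and 31.3 CPM in KO libraries, against 13.1, 11.3, 10.3 and 11.2 CPM in CTR libraries, a log2 fold change of 1.29 ± 0.18 (edgeR adjusted p = 0.00134). KO library 1 was the lowest of its group but still above every CTR library. Flt1, a VEGF receptor, rose by 0.84 on the log2 scale (adjusted p = 0.0121). Angptl4, an inhibitor of lipoprotein lipase, rose by 0.85 (adjusted p = 0.0289), but was not called without KO library 2 (0.0801), KO library 3 (0.0525), CTR library 3 (0.0640) or CTR library 4 (0.0638). Igfbp3, which binds insulin-like growth factors, fell by 1.52 (adjusted p = 0.0166), though not in the robust fit (0.0610). Stc1, a secreted glycoprotein, fell by 1.15 (adjusted p = 0.0341), with 0.793 to 2.22 CPM in KO and 2.21 to 4.23 CPM in CTR. It was not called without KO library 1 (0.0735), KO library 4 (0.0774), CTR library 1 (0.0824), CTR library 2 (0.0910) or CTR library 3 (0.0553). Egln2 and Hif1an, which hydroxylate HIF alpha at different residues, had log2 fold changes of 0.17 and 0.10 (adjusted p = 0.156 and 0.301), and Hif3a was too low to test, at no more than 0.385 CPM.

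Marker genes of skin structures differed between the groups along with these genes. Hair shaft keratin and related genes summed to 162, 945, 1522 and 308 CPM in KO libraries 1 to 4, against 3003, 5478, 5452 and 3750 CPM in CTR libraries 1 to 4, with 9 of 11 measured markers lower in KO. Krtap genes summed to 1141 to 5664 CPM in KO and 13688 to 19421 CPM in CTR. Of the 7 keratinocyte markers 3 rose, namely Krt1, Krt10 and Lor of the differentiating layers, and none fell. Sebaceous gland markers summed to 6724 to 9288 CPM in KO and 4368 to 5769.5 CPM in CTR, with 4 of 7 higher, and outer root sheath and bulge markers to 5306 to 5761 CPM in KO and 4545 to 5277 CPM in CTR, with 1 of 7 higher and 1 lower. Transcripts of the mitochondrial genome summed to 7809.7 to 9835 CPM in KO and 11547 to 12645 CPM in CTR. Each of these 6 sums gave a two-sided exact permutation p of 0.0286, the smallest that 4 against 4 libraries allow, which adjustment over 17 such measures raised to 0.0607, above the threshold. The 11 rises of members and the fall of Fbp1, whose lowest KO libraries were 1 and 4 as for the hair shaft sum, went along with these shifts. Their part in the results was not tested.

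Markers of other cell types took small shares of the counts. Leukocyte markers summed to 30.4 to 38.1 CPM in KO and 20.2 to 32.2 CPM in CTR, with 3 of 7 tested markers higher, namely Cd3e, Trdc and Cd207. Melanocyte markers summed to 294 to 512 CPM in KO and 201 to 310.4 CPM in CTR, with 4 of 5 higher, and fibroblast markers to 346 to 490.1 CPM in KO and 245 to 365 CPM in CTR, with 1 of 5 tested higher. Schwann cell markers gave 50.2 to 54.98 CPM in KO and 59.8 to 68.5 CPM in CTR, with 1 of 4 tested lower, namely Mbp. Endothelial markers gave 3.40 to 4.14 CPM in KO and 3.53 to 11.2 CPM in CTR, with Kdr at no more than 3 counts in a library. Erythroid markers gave 3.93 to 8.20 CPM in KO and 7.01 to 16.4 CPM in CTR, with 1 of 2 tested lower. Adipocyte markers gave 2.63 to 3.75 CPM in KO and 1.15 to 2.21 CPM in CTR, with the 1 tested marker, Cidec, higher. The Schwann and adipocyte sums also gave an exact permutation p of 0.0286, adjusted to 0.0607. Skeletal muscle markers stayed at 2.30 to 3.33 CPM in KO and 2.21 to 3.83 CPM in CTR, and neutrophil markers at 2.22 to 3.87 CPM in KO and 2.21 to 3.68 CPM in CTR, with Ngp at 0. Smooth muscle and pericyte markers stood apart in KO library 4, at 77.2 CPM, and CTR library 2, at 25.6 CPM. Without KO library 4, 10 members rose, beside 1253 of all 15864 genes tested. Without CTR library 2, 9 members rose, beside 1279 of 15808. With all 8 libraries these were 11 members and 1792 of 15638 genes, so calls were fewer over all genes as well. The part of these cells in the results was not tested.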

How the data were processed

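RNA of tail epidermis from 8 mice (4 KO, 4 CTR, 1 library each) was sequenced as single 75-base reads from stranded poly-A libraries. Per the labels' protocols, dispase treatment of tail skin for 5 h in the cold loosened the epidermis, and 1 microgram of RNA was used. The authors deposited untransformed read counts per Ensembl gene, as the values themselves showed. Among the tools, per the submitters' processing notes, were STAR 2.4.1d and featureCounts 1.4.6, and the build was GRCm38. Not given in the sources used here were the annotation release, the strand setting and the handling of reads that match more than 1 place. Symbols and exon lengths came from GENCODE M21, where 46488 of 46983 identifiers were found, and promoters from RefSeq (GRCm38.p6).

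Counts were tested on all 8 libraries with edgeR 4.0.16 in R 4.3.3 (glmQLFit and glmQLFTest, two-sided, genotype as the only term). Scaling was by trimmed mean of M values (TMM), the filter was filterByExpr, and Benjamini-Hochberg adjustment ran over the 15638 genes kept, with a threshold of 0.05. Genes called or said to rise or fall passed that threshold. CPM are TMM-normalised, and at these totals 3 counts are 0.141 to 0.185 CPM. The sums of Krtap genes and of transcripts of the mitochondrial genome are the exception, scaled by library totals alone. In counts simulated for the same 15638 genes, 2 of 50 genes changed by 1.25-fold were recovered, 19 of 50 at 1.5-fold and 39 of 50 at 2-fold. At 4-fold 47 of 50 were recovered, and 9 of 116 calls were false. No other genes were changed there, while 3700 were called in the data. The adjusted threshold is stricter where fewer genes change, so these shares do not give the recovery in this comparison. Marker sums were compared by exact permutation over the 70 assignments of libraries (scipy 1.17.1).

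The members and lists were chosen with earlier results of these data known, so no p over a list is given. Every member is named. Values in each library are given for members that were called and for Slc2a1, Hk2, Pkm, Ldha, Hif1a, Epas1, Arnt, Vhl, Vegfa and Car9. From each further list the text names up to 6 called genes of at least 1 CPM with the largest change, and Gapdh, Pdk4, Egln2, Hif1an and Hif3a. Shared 75-base windows were counted over annotated transcripts only, and this count, the copies named and the motif search were chosen after the values were seen. The 17 alternatives were RLE, upper-quartile and library-total scaling, scaling without hair shaft genes, no filter, a filter of 1 CPM in 4 libraries, a robust fit, DESeq2 1.42.0, limma-voom (limma 3.58.1), and each library left out in turn. A fit with neighbouring mouse numbers in the labels as pairs was added after the data were seen. The labels do not say that such mice share a litter or a day, so this fit is not the one reported. Its adjusted p is given where it changes the call of a member, and not for the further genes.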

Additional observations from a re-analysis of the deposited data

Results flagged for a closer look

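In 76 groups of 4 libraries (38 genes in KO and in CTR), 7 held a library whose gap to the nearest of the other 3 was a share of the group's range above Dixon's critical value for 4 values, and chance alone gives about 1 in 20. KO library 3 had 229.1 CPM of Slc2a1, the glucose transporter, while the other KO libraries had 138.5 to 147.0 CPM. KO library 2 stood apart in 3 genes. It had 419.3 CPM of Aldoa, below the others at 442.6 to 443.4 CPM, 31.27 CPM of Ldhb, above 22.81 to 23.64 CPM, and 137.5 CPM of Pdk1, above 115.3 to 118.3 CPM. CTR library 1 had 72.4 CPM of Arnt, just below the 73.73 to 73.83 CPM of the other CTR libraries. CTR library 4 had 21.82 CPM of Vhl, above 20.36 to 20.46 CPM, and CTR library 2 had 1.634 CPM of Car9, below 2.251 to 2.351 CPM.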

How the results depend on the processing

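The number of members that differed was 12, and 9 to 16 over the 17 alternatives, with 9 to 15 that rose against 11 in the analysis reported. Over all genes 2589 to 4370 differed, against 3700, and over the further glycolysis and hypoxia genes 16 to 29, against 23. None of these counts moved by more than 1.5 times. Pfkl, Tpi1, Pkm, Ldhb, Slc16a1, Slc16a3, Adm and Bnip3 were called in all 17. Arnt was lost in 9, among them library-total scaling (adjusted p = 0.0503) and no filter (0.110). DESeq2 called 16 members, adding Ldha (0.0348), Pgam1 (0.0378), Egln3 (0.0215) and P4ha2 (0.0477). The sign turned for 6 members that were not called, each time with 1 library left out: over these 8 fits the log2 fold change ran from -0.15 to 0.13 for Slc2a1, -0.055 to 0.090 for Hk1, -0.28 to 0.054 for Pfkfb3, -0.12 to 0.015 for Hif1a, -0.39 to 0.023 for Epas1 and -0.082 to 0.073 for Vhl. The labels give no litters and no pairing, but KO and CTR mice have neighbouring numbers. Neighbours deviated together from their group means (correlation over genes of 0.152 to 0.3998 in the 4 pairs, although KO library 3 correlated at 0.162 with CTR library 2). An edgeR fit with these pairs as a replicate block, chosen after seeing the data, called 17 members, 16 of them higher, 29 of the further genes and 4313 of all genes, and the 12 members called without the block were among the 17. In simulated counts at this number of mice 19 of 50 genes changed by 1.5-fold were recovered. Far fewer genes were changed there than were called here, so that share does not carry over. Small changes can still be missed with so few mice. Adm, Car9 and Slc2a3 rest on as few as 41, 34 and 19 counts in a library.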
